A study of Mus musculus with 8 samples.

Results

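The cytosolic ribosomal proteins are the protein shell of the ribosomes that translate nuclear messenger RNA. Here they are the protein-coding genes whose GENCODE M21 symbol starts with Rpl or Rps and a digit, together with Rplp0, Rplp1, Rplp2 and Rpsa. The S6 kinases and names holding "bp" or "-ps" were left out. The rule found 84 genes among the 26589 genes of the deposited table, 51 of the large and 33 of the small subunit. It used no measured value.

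The RNA came from B cells of mouse spleens, 4 libraries sorted as IL-10+ and 4 sorted as IL-10-. The donors were IL-10-eGFP Tiger mice, whose cells report Il10 transcription by making green fluorescent protein, and all cells of both groups had been cultured with 3 µg/ml lipopolysaccharide for 48 h, so no unstimulated cells are in the comparison. The age and sex of the mice are not in the labels, and a treatment tag that reads "untreated" stands against the protocols, which were followed. The labels number the replicates 1 to 4 without saying whether a number is a mouse or a culture, so the p-values cover the spread among these libraries alone, part of which may be technical. The series title names oxidative phosphorylation, ERK and the making of IL-10, and the question asked here is whether the transcripts of the ribosome differ between B cells that do and do not show the reporter.

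A ribosome joins a small subunit, which reads the messenger RNA, to a large subunit, which forms the peptide bonds and holds the exit tunnel for the new protein. Each ribosomal protein is normally present once per ribosome, apart from the stalk proteins P1 and P2, and their messenger RNAs begin with a pyrimidine tract, the 5′ terminal oligopyrimidine or TOP motif, through which mTORC1 signalling controls their translation. B cells stimulated with lipopolysaccharide grow, divide and in part turn into antibody-secreting plasmablasts, all of which draws on ribosomes.

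The libraries held 27373555 to 29960801 reads, as recovered from the FPKM, the deposited unit, which divides a gene's reads by its length and by the size of the library. Il10, on which the cells were sorted, stood at 36.9 ± 5.32 FPKM in IL-10+ cells, against 3.17 ± 1.48 FPKM in IL-10- cells (SD, n = 4 each), which checks the labels. Summed B cell markers were 1157 to 1450 FPKM in IL-10+ and 1252 to 1682 FPKM in IL-10- libraries, while the summed T cell, NK cell, myeloid, erythroid and neutrophil markers were at most 1.36 FPKM in any library. The 5 plasmablast markers summed to 435 to 484 FPKM in IL-10+ libraries, against 106 to 136 FPKM in IL-10- libraries, and immunoglobulin genes took 14.6 ± 1.62% of all FPKM in IL-10+ cells, against 4.19 ± 0.439% in IL-10- cells (SD, n = 4 each). The part of these in the results on ribosomal proteins was not tested, and in bulk RNA a change in the share of a cell type and a change in RNA per cell cannot be told apart.

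The sequences around a start site show what these genes have in common at the DNA level. RefSeq promoter windows of 300 bases, 250 before and 50 after the start in build GRCm38.p6, were at hand for 64 of the 84 genes. A gene with several starts has several windows. It was counted once, as holding a word if any of its windows did, so the shares of windows given here are shares of genes. The word CTTTCC is a short pyrimidine run of the kind found at TOP starts. It stood on the sense strand in the last 100 bases in 21 of these 64 genes, or 32.8%, against 5.43% of all 27025 genes. On the antisense strand of the same 100 bases it stood in 3.13% of ribosomal protein windows and 5.12% of all windows. Over the whole 300 bases and either strand the difference was smaller, at 53.1% of ribosomal protein windows and 29.3% of all windows. By subunit, 17 of 39 large subunit and 4 of 25 small subunit genes held it on the sense strand of the last 100 bases. The windows below are matches in genes whose values are described in the following paragraphs, not all matches, in the direction of transcription, with the word in capitals.
Rpl36al: ctctgttcgtccCTTTCCtgttcggcgcgt
Rpl13a: caagacctcctcCTTTCCcaggcggctgcc
Rpl22: tctgactcctccCTTTCCcgacagccgact
Rpl39l: tagctcccaggcCTTTCCggatttccggtg
Rps27: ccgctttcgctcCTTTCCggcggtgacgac
Rps27rt: acttatcccttgCTTTCCggcggtgacgac
They lie at chr12:69184019-69184048 (minus strand), chr7:45128719-45128748 (minus), chr4:152325682-152325711 (plus), chr16:10170210-10170239 (plus), chr3:90213630-90213659 (minus) and chr9:114982722-114982751 (minus), in the order printed. In the same order the word began at 31, 9, -32, -6, 1 and 0 bases from the RefSeq start, with negative values before it. These matches therefore do not all lie at a start. The last pair shows a gene and its retrogene, a copy made through messenger RNA: the word and the bases after it are identical at 18 of 18 positions, while the bases before it are identical at 4 of 12. The word CCGGAAG, the core bound by ETS factors, was found on either strand of 40.6% of the ribosomal protein windows and 9.93% of all windows, TTTCCG, which overlaps both words above, in 42.2% and 10.0%, ATGGCGG in 17.2% and 4.69%, TATAA in 28.1% and 28.0%, and CCAAT in 31.3% and 41.1%. Matches to the TCT initiator, another pyrimidine start, stood in 34.4% of ribosomal protein windows and 31.0% of all windows on either strand. On the sense strand of the last 100 bases they stood in 15.6% and 5.99%. There TATAA stood in 15.6% and 7.97%, and CCAAT in 4.69% and 7.72%. The other shares there were 15.6% and 3.18% for CCGGAAG, 18.8% and 2.48% for TTTCCG, and 6.25% and 1.78% for ATGGCGG. In all, 7 words or word groups were searched in both windows and on both strands, and CTTTCC in the last 100 bases was picked for display after these shares had been seen. A match is not a bound site, and among tested members the median log2 change was -0.07 in the 20 genes with the sense CTTTCC and -0.09 in the 41 without it.

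Ribosomal protein transcripts were among the most abundant in both groups. Of the 84 genes, 6 were among the 20 highest genes by mean FPKM over all libraries, 36 among the 100 highest and 54 among the 200 highest. The medians over the tested members were 329 FPKM in IL-10+ cells and 352 FPKM in IL-10- cells. Over all tested genes they were 8.52 FPKM in IL-10+ cells and 8.63 FPKM in IL-10- cells. The mean FPKM of the tested members spanned 3.44 for Rpl36al to 2534 for Rplp0. The members Rpl24, Rpl39l and Rpl3l did not reach 1 FPKM in at least 4 libraries and were not tested, which leaves 81.

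The stalk is the flexible arm of the large subunit that recruits the GTPases of translation. Its base protein Rplp0 was the most abundant member, with 2722, 2699, 2490 and 2453 FPKM in the IL-10+ libraries 1 to 4 and 2577, 2650, 2404 and 2275 FPKM in the IL-10- libraries. Number by number Rplp0 stood higher in IL-10+, but the groups overlapped, and the log2 change of FPKM + 1 was 0.07 (SE 0.0703, limma adjusted p = 0.561). Its partner Rplp1 had 2368, 2366, 2349 and 2306 FPKM in IL-10+ and 2438, 2628, 2438 and 2332 FPKM in IL-10- libraries, the opposite order within every number (log2 change -0.07, adjusted p = 0.457). Rplp0 and Rplp1 thus differed in direction within every number, with neither change past the threshold. Rplp2, the other acidic stalk protein, averaged 227 ± 10.0 FPKM in IL-10+ cells, against 235 ± 14.2 FPKM in IL-10- cells (SD, n = 4 each), and Rpl12, at the stalk base, 275 ± 13.5 FPKM in IL-10+ cells against 305 ± 23.7 FPKM in IL-10- cells.

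Around the catalytic centre and the tunnel the values were close. Rpl8, next in level after Rplp0 and Rplp1, averaged 1840 ± 48.8 FPKM in IL-10+ cells, against 1888 ± 63.7 FPKM in IL-10- cells. Rpl3 had 702, 706, 710 and 717 FPKM in IL-10+ libraries, against 768, 842, 746 and 735 FPKM in IL-10- libraries, so the groups did not overlap (log2 change -0.12, SE 0.0611, adjusted p = 0.205). The 7 proteins at the rim of the exit tunnel (Rpl17, Rpl19, Rpl23a, Rpl26, Rpl31, Rpl35 and Rpl39) all had changes below 0, between -0.13 and -0.03 on the log2 scale, and 0 of them passed the test (0 at an unadjusted p under 0.05, and Rpl31 with the block). Rpl5 and Rpl11, which carry 5S ribosomal RNA and bind MDM2 when ribosome assembly is disturbed, had log2 changes of 0.01 and -0.09.

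The small subunit was headed by Rps2 and Rps3a1. Rps2, at the entry of the messenger RNA channel, had 1638, 1733, 1724 and 1739 FPKM in IL-10+ libraries and 1777, 1917, 1801 and 1759 FPKM in IL-10- libraries. Rps3a1 had 1610, 1628, 1620 and 1627 FPKM in IL-10+ libraries, against 1771, 1912, 1757 and 1678 FPKM in IL-10- libraries. In both, all IL-10+ values were below all IL-10- values, with log2 changes of -0.09 (adjusted p = 0.327) and -0.13 (adjusted p = 0.148). Rps15, of the decoding site, averaged 1307 ± 45.8 FPKM in IL-10+ cells, against 1399 ± 50.7 FPKM in IL-10- cells, and Rps6, the substrate of S6 kinase downstream of mTORC1, 945 ± 16.7 FPKM in IL-10+ cells against 994 ± 67.6 FPKM in IL-10- cells (SD, n = 4 each). The lowest members of this subunit were Rps15a, at 78.7 ± 1.19 FPKM in IL-10+ cells, against 84.8 ± 5.11 FPKM in IL-10- cells, Rps27l (below) and Rps28, at 132 ± 2.92 FPKM in IL-10+ cells against 135 ± 8.01 FPKM in IL-10- cells. Rps21 had the lowest log2 change of the subunit, with 187, 216, 212 and 218 FPKM in IL-10+ and 239, 227, 243 and 220 FPKM in IL-10- libraries, values that did not overlap (log2 change -0.16, SE 0.0707, adjusted p = 0.161).

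Across the 81 tested members, 1 was called higher in IL-10+ cells and 0 lower by limma on log2(FPKM + 1) at a Benjamini-Hochberg adjusted p under 0.05 over all 11329 tested genes, where 10.6% of all genes were called higher and 9.18% lower. At an unadjusted p under 0.05, 7 members passed, against 32.7% of all genes. The changes of 75 members (92.6%) were below 0, against 60.7% of all tested genes. The median over the members was -0.09 on the log2 scale, beside -0.06 for all tested genes. The large subunit had a median of -0.09 with 43 of 48 members below 0, and the small subunit a median of -0.08 with 32 of 33 below 0. In 2 members, Rpl36al and Rpl10, all IL-10+ values lay above all IL-10- values, and in 16 all lay below. These were 9 large subunit members, among them Rpl3, Rpl21, Rpl36a and Rpl37, and 7 small subunit members, among them Rps2, Rps3a1, Rps12 and Rps21, beside 12.2% of all genes without overlap upward and 13% downward. Without IL-10- replicate 4 the downward count was 33 members (40.7%), beside 15% of all genes. With any other single library left out it was 16 to 22 members (19.8% to 27.2%), beside 13.9% to 17.6% of all genes. The ordered changes of all tested members show this layout, with most points close to the line of all genes.

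**Figure D1:**
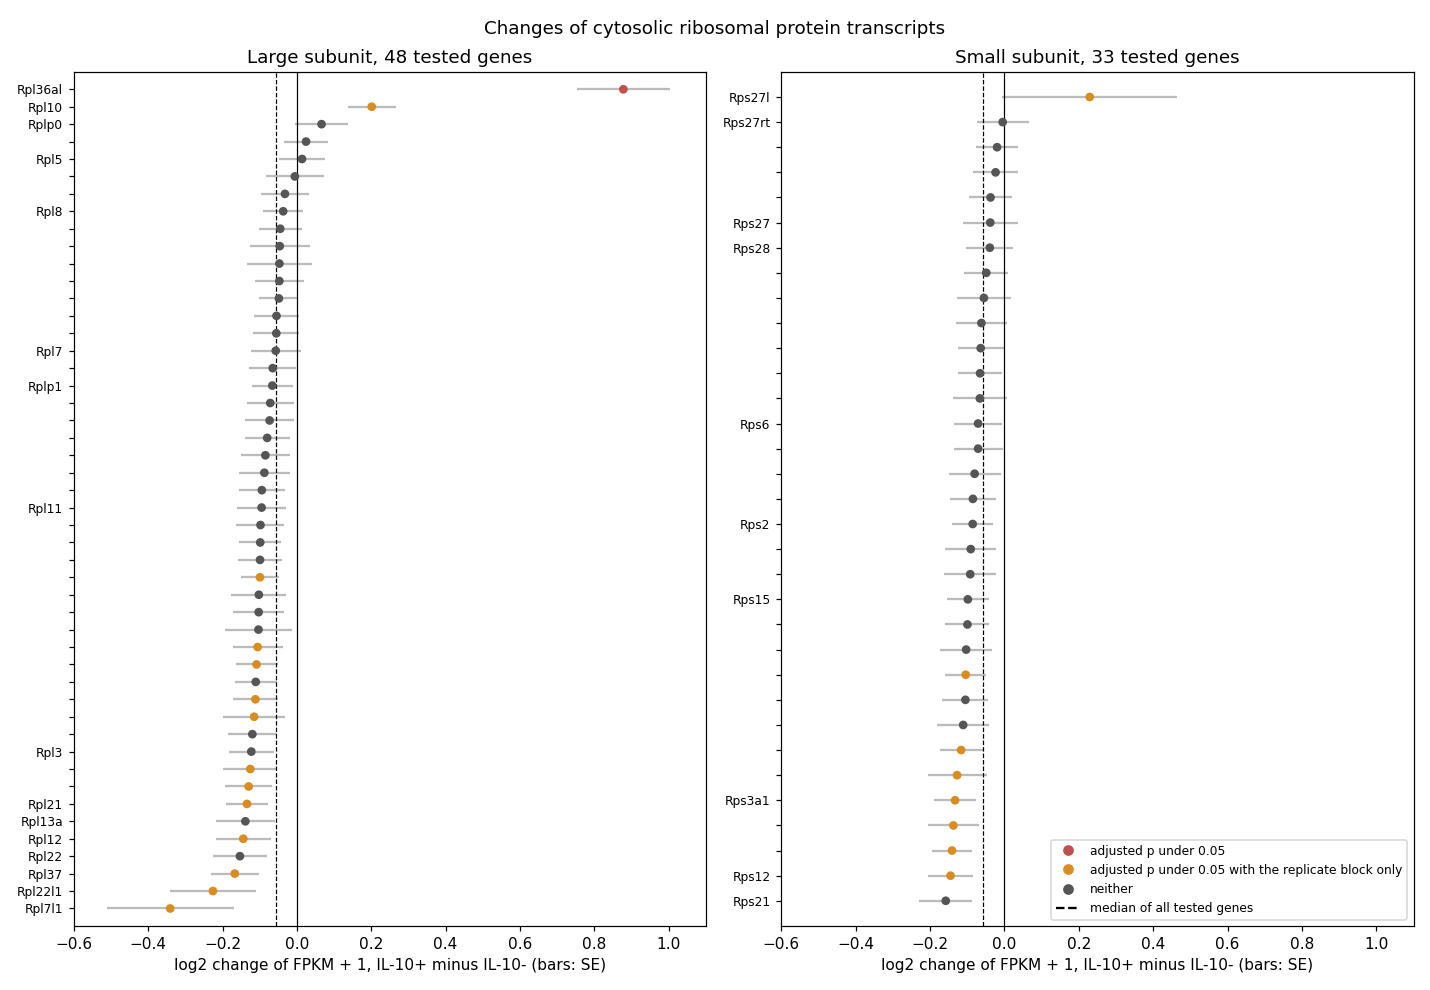
Log2 change of FPKM + 1, IL-10+ minus IL-10-, for the 48 tested large subunit genes (left) and the 33 tested small subunit genes (right), with the SE of the limma fit as bars and the median of all tested genes as a dashed line. Some of the genes described in the text are labelled. Rpl36al stands apart at 0.88, and 75 of the 81 points lie below 0, against 60.7% of all tested genes.

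The members varied less between libraries than all tested genes did, but their levels differ. The median level of the members was 343 FPKM, against 8.69 FPKM over all tested genes, and genes of like level were not compared. The SD of log2(FPKM + 1) within a group had a median over members of 0.0429 for the IL-10+ libraries and 0.0851 for the IL-10- libraries. Over all tested genes it was 0.140 for the IL-10+ libraries and 0.154 for the IL-10- libraries. The middle 50% of the members' changes spanned 0.0620 on the log2 scale, against 0.298 for all genes and 0.173 for the 76 tested mitochondrial ribosomal protein genes, which build the separate ribosome of mitochondria. Of those mitochondrial genes 1 was called higher and 1 lower, beside 10.6% and 9.18% of all genes, and their median change was -0.09.

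With the replicate number as a block, calls rose in number. Libraries of the same number deviated from their group means together, so the blocked fit is given beside the first. It called 3 members higher, Rpl36al, Rpl10 and Rps27l, against 20.4% of all genes, and 19 lower, against 33.3% of all genes. Of the 76 mitochondrial ribosomal protein genes it called 7 higher and 30 lower. Of the 19, 12 were large subunit genes, among them Rpl7l1, Rpl22l1, Rpl37, Rpl12, Rpl21 and Rpl31, and 7 small subunit genes, among them Rps12, Rps3a1 and Rpsa. Apart from Rpl7l1 and Rpl22l1, the log2 changes of the 19 lay between -0.17 and -0.10. When the blocked fit was made on values scaled without immunoglobulin and mitochondrially encoded genes, 4 members were called higher, Rplp0 with them, against 22.5% of all genes, and 8 lower, against 27.5% of all genes, among them Rpl7l1, Rpl22l1, Rpl37 and Rps12. That scaling moved the median of all genes to -0.03 and that of the members to -0.05.

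Single IL-10- libraries weighed on the size of the difference. IL-10- replicate 2 held the highest of the 4 IL-10- values in 72 of the 81 members, 43 of 48 large and 29 of 33 small, while it held the highest IL-10- value in 19.3% of all genes. By number, the median difference of the members was -0.08, -0.18, -0.06 and -0.01 on the log2 scale for replicates 1 to 4, with 70, 77, 67 and 46 of 81 members lower in the IL-10+ library, while the median over all genes stayed between -0.06 and -0.05 in each number. Without IL-10- replicate 2 the median of the members was -0.06, the same to 2 decimals as that of all genes, and 2 members, Rpl36al and Rpl10, were called higher and 0 lower, where 9.37% of all genes were called higher and 6.48% lower. Still 70 of 81 members (86.4%) then had changes below 0, against 60.0% of all genes. IL-10- replicate 4 lay at the other end, with the lowest IL-10- value in 54 of 81 members (66.7%), against 23.7% of all genes. Without it the median of the members was -0.11, beside -0.05 for all genes, and 76 of 81 changes (93.8%) were below 0, against 60.0% of all genes. Number by number, 42 members (51.9%) were lower in all 4 IL-10+ libraries, against 40.4% of all genes, and 4 were higher in all 4, against 24.3% of all genes.

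**Figure D2:**
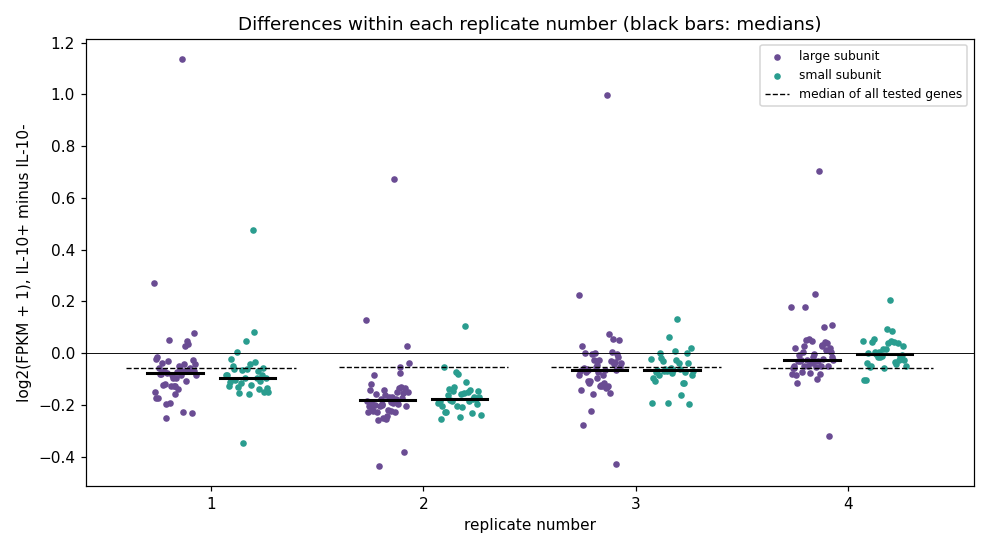
Difference of log2(FPKM + 1), IL-10+ minus IL-10-, within each replicate number for every tested large and small subunit gene, with the median of each subunit as a black bar and the median of all tested genes as a dashed line. The members sit lowest at number 2, with a median of -0.18, and near 0 at number 4, with a median of -0.01.

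Summed over all members, ribosomal proteins took 10.54%, 10.94%, 10.86% and 10.99% of all FPKM in the IL-10+ libraries and 12.53%, 13.21%, 12.01% and 11.94% in the IL-10- libraries. The groups did not overlap, at 10.8 ± 0.202% in IL-10+ cells and 12.4 ± 0.585% in IL-10- cells (SD, n = 4 each). The share depends on what else is in the library. With immunoglobulin and mitochondrially encoded genes left out of the denominator it was 13.5 ± 0.112% in IL-10+ cells and 13.8 ± 0.594% in IL-10- cells, the groups overlapped, and 3 numbers were lower and 1 higher. Without IL-10- replicate 2 as well, the means were 13.5% in IL-10+ cells and 13.6% in IL-10- cells.

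The large subunit genes summed to more than the small subunit genes, and their ratio differed a little between the groups. It was 1.377, 1.374, 1.378 and 1.357 in the IL-10+ libraries and 1.328, 1.338, 1.353 and 1.350 in the IL-10- libraries, higher in the IL-10+ library of every number and without overlap. With Rplp0 left out of the sum the ratio was 1.211, 1.210, 1.227 and 1.208 in IL-10+ libraries, against 1.182, 1.196, 1.212 and 1.213 in IL-10- libraries, and the groups overlapped. Rplp0 was left out after its values had been seen. Per gene, the small subunit had the higher median level, with 316 FPKM for the large and 359 FPKM for the small subunit in IL-10+ cells, and 337 FPKM and 381 FPKM in IL-10- cells.

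**Figure D3:**
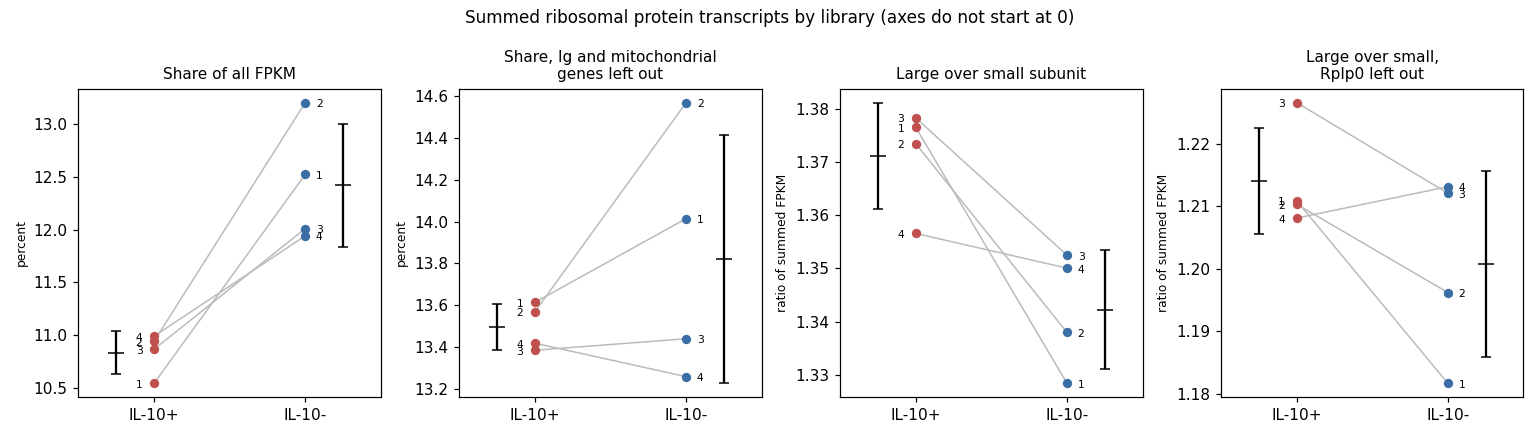
Summed ribosomal protein FPKM as a share of all FPKM, the same share without immunoglobulin and mitochondrially encoded genes, the ratio of summed large to summed small subunit FPKM, and that ratio without Rplp0. Points are libraries, lines join equal replicate numbers, bars give the mean and SD of 4 libraries, and the axes do not start at 0; the groups are apart in the share of all FPKM and in the ratio of all members, and overlap in the others.

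Rpl36al was the member with the largest change and the one called higher. It is an autosomal relative of the X-linked Rpl36a, whose protein sits near the exit site for transfer RNA. Rpl36al (ENSMUSG00000049751, chr12:69182731-69184083, minus strand) had 6.13, 3.86, 5.15 and 3.96 FPKM in the IL-10+ libraries and 2.24, 2.05, 2.07 and 2.05 FPKM in the IL-10- libraries. Every IL-10+ value exceeded every IL-10- value, and the IL-10- values were nearly equal. The ratio of the means was 2.27, and the log2 change of FPKM + 1 was 0.88 (SE 0.124, limma adjusted p = 0.00140). By exact permutation of the library labels the two-sided p was 0.0286, which is the lowest value possible with 4 libraries a group. The recovered reads behind these values were 724 in all in the 4 IL-10+ libraries and 326 in the 4 IL-10- libraries.

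Several measured features stand beside this result. Of the 318 coding bases of Rpl36al, 95.3% lie inside an exon of the read-through gene Gm49383, and 1021 of its 1353 exonic bases lie in no other gene. The treatment of reads that fall in both genes was not stated in what was used here. Rpl36a itself had 165, 170, 163 and 174 FPKM in IL-10+ libraries and 175, 195, 180 and 178 FPKM in IL-10- libraries, so Rpl36al made up 2.77 ± 0.666% of the pair in IL-10+ and 1.15 ± 0.0924% in IL-10- cells (SD, n = 4 each). The pseudogene Rpl36a-ps3, which shares 46.5% of the 50-base words of the Rpl36al transcript, had 7.96, 7.35, 9.60 and 11.4 FPKM in IL-10+ and 5.23, 4.81, 7.75 and 6.55 FPKM in IL-10- libraries. Those groups overlapped, with a log2 change of 0.51 and an adjusted p of 0.0594 (0.00238 with the replicate block).

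The neighbour of Rpl36al on the other strand is Mgat2, a Golgi enzyme that extends N-linked glycans (chr12:69184157-69186770, plus strand). Mgat2 had 51.5, 52.6, 59.3 and 58.8 FPKM in IL-10+ libraries and 31.3, 32.1, 37.0 and 39.1 FPKM in IL-10- libraries. All IL-10+ values were higher, with a log2 change of 0.66 (SE 0.0913, limma adjusted p = 0.00126). Between the annotated ends of the 2 genes lie 73 bases, chr12:69184084-69184156, printed on the strand of Rpl36al with ATTGG, the reverse complement of the CCAAT box, in capitals.
Rpl36al to Mgat2: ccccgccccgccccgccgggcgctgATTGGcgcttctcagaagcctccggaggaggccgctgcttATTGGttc
The interval held ATTGG at 2 places, no CCGGAAG or CTTTCC on either strand, and 71.2% G or C. At least 2 matches to CCAAT on either strand were found in 10.9% of ribosomal protein windows and 13.3% of all windows. The part of the shared interval and of the overlapping exons in the Rpl36al values was not tested.

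Rpl10 is the other member whose IL-10+ values all lay above its IL-10- values. It encodes an X-linked protein (chrX:74270812-74273135) that joins the large subunit late, near the catalytic centre. Rpl10 had 506, 533, 537 and 516 FPKM in IL-10+ libraries, against 419, 488, 459 and 456 FPKM in IL-10- libraries. The groups did not overlap, the ratio of the means was 1.15, and the log2 change was 0.20 (SE 0.0643, adjusted p = 0.0609). The adjusted p was 0.00481 with the replicate block and 0.0230 on values scaled without immunoglobulin and mitochondrially encoded genes. Of the 50-base words of its transcript 92.1% also occur in other loci, foremost Rpl10-ps3, which was itself listed at 2.66 to 4.24 FPKM in IL-10+ libraries and 2.00 to 3.65 FPKM in IL-10- libraries.

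Rps27l, a relative of Rps27 whose gene is induced by p53, varied with the replicate number. It had 82.1, 89.2, 121 and 132 FPKM in IL-10+ libraries and 58.7, 83.0, 110 and 114 FPKM in IL-10- libraries. Numbers 3 and 4 were high and 1 and 2 low in both groups, and within each number the IL-10+ library was the higher one. The log2 change was 0.23 (SE 0.235, adjusted p = 0.546, or 0.0310 with the replicate block). Beside it, Mdm2, a p53 target that degrades p53, averaged 26.8 ± 1.75 FPKM in IL-10+ cells, against 22.3 ± 0.184 FPKM in IL-10- cells (adjusted p = 0.0215), and the p53 target Cdkn1a 7.25 ± 2.40 FPKM in IL-10+ cells against 5.32 ± 2.18 FPKM in IL-10- cells (adjusted p = 0.380, or 0.00180 with the block). Trp53, which encodes p53, averaged 59.0 ± 4.32 FPKM in IL-10+ cells, against 70.1 ± 2.79 FPKM in IL-10- cells (adjusted p = 0.0372, or 0.0643 on values scaled without immunoglobulin and mitochondrially encoded genes).

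Rps27 and the retrogene Rps27rt cannot be separated well by their reads. Rps27 averaged 185 ± 8.24 FPKM in IL-10+ cells, against 190 ± 15.3 FPKM in IL-10- cells, and Rps27rt 158 ± 10.1 FPKM in IL-10+ cells against 159 ± 8.37 FPKM in IL-10- cells (SD, n = 4 each). Of the 50-base words of Rps27 98.6% occur elsewhere in the transcriptome, and of those of Rps27rt 91.1%. Rps27rt made up 46.1 ± 0.833% of the pair in IL-10+ and 45.5 ± 1.04% in IL-10- cells.

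Rpl7l1, a relative of Rpl7 that acts in ribosome assembly in human cells, had the lowest log2 change of all tested members. Rpl7l1 had 44.8, 48.1, 58.2 and 66.1 FPKM in IL-10+ libraries and 52.7, 63.1, 78.8 and 82.7 FPKM in IL-10- libraries. The groups overlapped, while in every number the IL-10+ library was lower (log2 change -0.34, SE 0.170, adjusted p = 0.207; SE 0.0390, adjusted p = 0.00113 with the replicate block). Its relative Rpl7 averaged 498 ± 21.0 FPKM in IL-10+ cells, against 519 ± 32.4 FPKM in IL-10- cells, a log2 change of -0.06.

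Rpl22l1, the relative whose level Rpl22 protein is known to hold down in mouse, had 20.77, 20.16, 17.03 and 19.02 FPKM in IL-10+ libraries, against 23.92, 27.60, 20.04 and 19.75 FPKM in IL-10- libraries. Rpl22 had 90.2, 94.1, 90.7 and 93.6 FPKM in IL-10+ libraries, against 108, 113, 97.8 and 93.3 FPKM in IL-10- libraries. Both were lower on average, with log2 changes of -0.23 (adjusted p = 0.217, or 0.0276 with the block) and -0.15 (adjusted p = 0.188, or 0.0504 with the block). Rpl22l1 made up 17.3 ± 1.23% in IL-10+ cells and 18.1 ± 1.16% of the pair in IL-10- cells (exact two-sided permutation p = 0.400, n = 4 each).

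Rps12 had the largest fall among the small subunit genes called lower in the blocked fit. It had 251, 257, 257 and 254 FPKM in IL-10+ libraries and 274, 306, 275 and 273 FPKM in IL-10- libraries. All IL-10+ values were lower, and IL-10- replicate 2 stood well above the other 3 (log2 change -0.14, SE 0.0604, adjusted p = 0.134, or 0.0195 with the block). The row Rps12-ps3, listed as protein-coding but outside the rule, was at 364 ± 8.75 FPKM in IL-10+ cells, against 402 ± 21.3 FPKM in IL-10- cells (adjusted p = 0.138, or 0.0153 with the block).

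**Figure D4:**
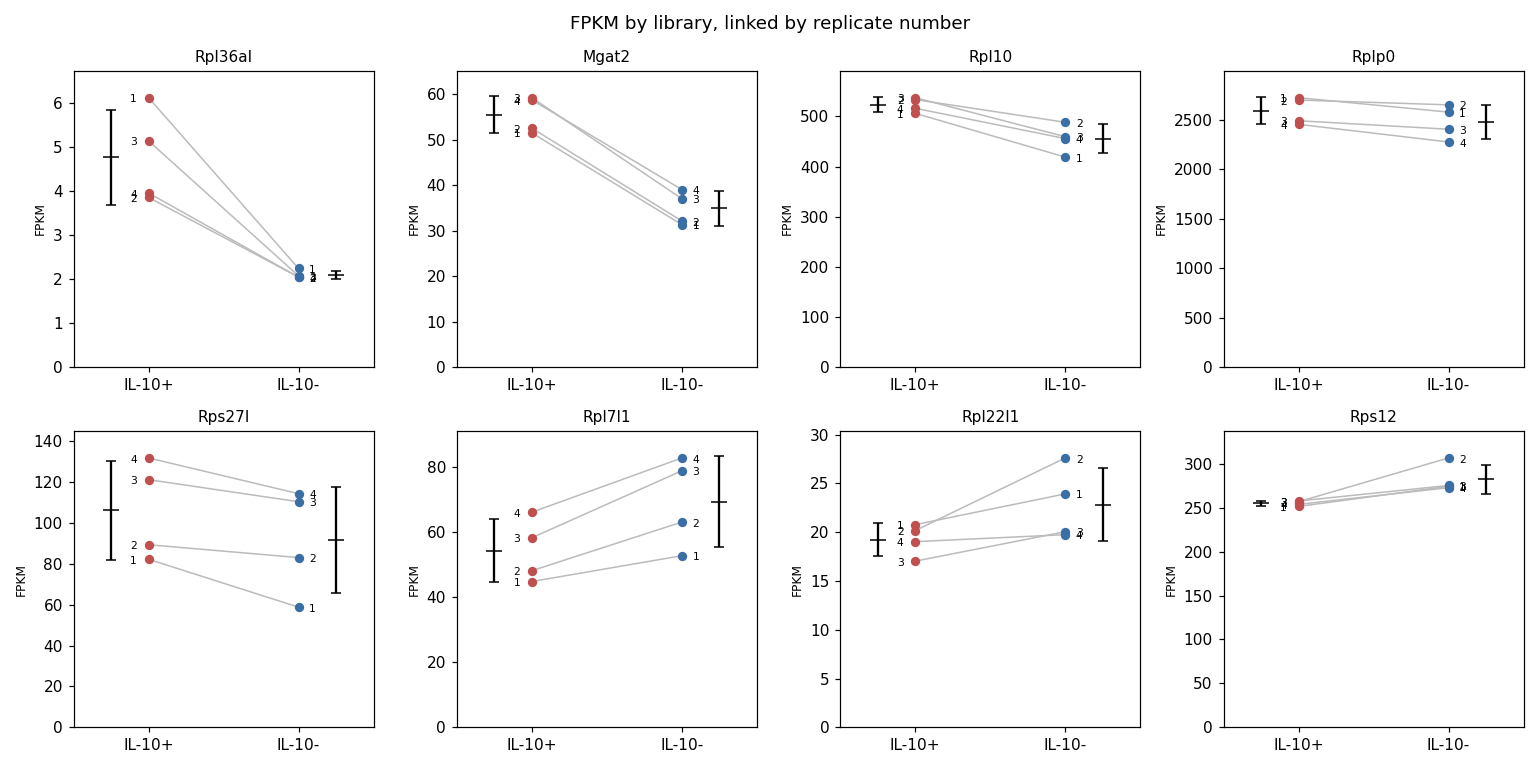
FPKM of 7 ribosomal protein genes and of Mgat2 by library, with lines joining equal replicate numbers and bars giving the mean and SD of 4 libraries. Rpl36al, Mgat2 and Rpl10 are higher in all IL-10+ libraries and Rps12 lower in all, while Rps27l and Rpl7l1 run with the replicate number in both groups.

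The members with very low values were tissue-restricted relatives or overlapped genes. Rpl3l, the relative of Rpl3 used in heart and skeletal muscle, was at most 0.156 FPKM in any library, with 12 recovered reads in the IL-10+ and 6 in the IL-10- libraries. Rpl39l, known from testis, had 0.0879, 0.129, 0.834 and 0.215 FPKM in IL-10+ and 0.0860, 0.0844, 0.898 and 0.281 FPKM in IL-10- libraries, so number 3 was the highest in both groups. Rpl24, a core protein at the subunit interface, was at only 0.622 ± 0.199 FPKM in IL-10+ cells, against 0.711 ± 0.280 FPKM in IL-10- cells (SD, n = 4 each). Of the coding bases of Rpl24 83.4% lie in an exon of Gm28037, a locus on the same strand.

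Members with most of their coding bases inside another gene's exon had a lower median level. In 5 members at least 50% of the coding bases lie in another gene's exon: Rpl36al, Rpl13a (90.3%), Rpl24, Rps10 (80.1%) and Rpl23a (55.3%). Their median level was 11.1 FPKM, against 354 FPKM for the other 79, while Rps10, the highest of the 5, stood at 240 FPKM. Rpl13a, for one, averaged 10.5 ± 0.845 FPKM in IL-10+ cells, against 11.7 ± 0.926 FPKM in IL-10- cells, the second lowest of the tested large subunit genes (log2 change -0.14, adjusted p = 0.272). Across the 84 genes the rank correlation (Spearman) of coding overlap with mean FPKM was -0.41, while that of shared 50-base words with mean FPKM was 0.18, and that of shared words with the log2 change 0.14 across 81 genes. These describe genes of the same libraries, which are not independent. The deposited levels of such members are uncertain as levels.

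**Figure D5:**
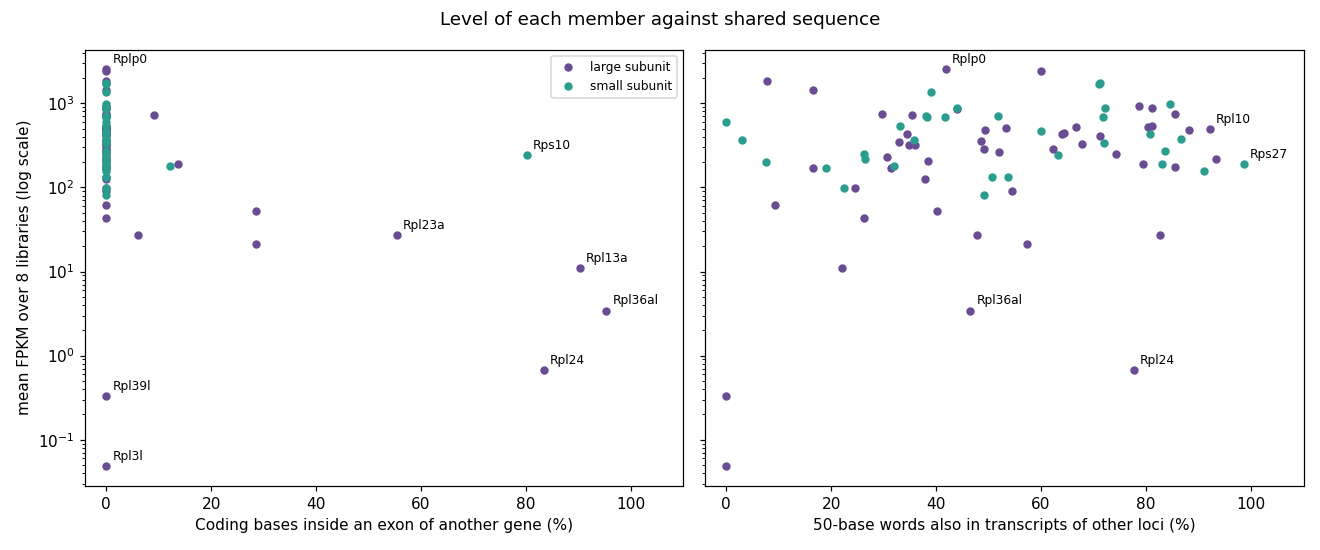
Mean FPKM over 8 libraries (log scale) of all 84 ribosomal protein genes against the share of coding bases inside an exon of another gene (left) and against the share of 50-base words found in transcripts of other loci (right). The 5 genes beyond 50% coding overlap have a median of 11.1 FPKM, while high sharing of words goes with high and low levels alike.

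Ribosomal protein genes have many pseudogenes, to which their reads can also map. The 175 rows with an Rpl or Rps symbol and "-ps" summed to 5012 ± 199 FPKM in IL-10+ cells, against 5302 ± 300 FPKM in IL-10- cells (SD, n = 4 each). Of the 84 of them that were tested, 0 were called higher and 1 lower, beside 10.6% and 9.18% of all genes.

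The ribosome's other proteins and its assembly machinery were taken from lists named with earlier results in view. Fau, which encodes a small subunit protein as a fusion, averaged 748 ± 51.6 FPKM in IL-10+ cells, against 846 ± 79.0 FPKM in IL-10- cells (adjusted p = 0.192, or 0.00541 with the block), and the small subunit scaffold Rack1 353 ± 4.93 FPKM in IL-10+ cells against 359 ± 28.0 FPKM in IL-10- cells (adjusted p = 0.856).

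Ribosome biogenesis factors, which make and fold ribosomal RNA in the nucleolus, differed widely between replicate numbers. Of 38 tested, 0 were called, beside 10.6% of all genes called higher and 9.18% lower. At an unadjusted p under 0.05, 3 of the 38 passed, against 32.7% of all genes. The median log2 change of the 38 was -0.24. With the replicate block 37 were called lower and 0 higher, where that fit called 33.3% of all genes lower and 20.4% higher. Nucleolin (Ncl) averaged 201 ± 48.9 FPKM in IL-10+ cells, against 241 ± 59.9 FPKM in IL-10- cells (log2 change -0.26, adjusted p = 0.470, or 0.00157 with the block), and Nhp2, of the H/ACA particles, 136 ± 34.6 FPKM in IL-10+ cells against 158 ± 41.1 FPKM in IL-10- cells (adjusted p = 0.576, or 0.00161 with the block).

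RNA polymerases I and III, which transcribe ribosomal RNA, and the initiation factors of polymerase I made up a list of 23 tested genes, of which 3 were called lower and 0 higher, against 9.18% and 10.6% of all genes, or 15 lower with the block, against 33.3% of all genes. The 3, all polymerase subunits, were Polr1c (37.5 ± 4.54 FPKM in IL-10+ cells, against 49.4 ± 6.18 FPKM in IL-10- cells, adjusted p = 0.0467), Polr3e (10.7 ± 1.24 FPKM in IL-10+ cells against 13.7 ± 0.788 FPKM in IL-10- cells, adjusted p = 0.0236) and Twistnb (10.8 ± 0.0745 FPKM in IL-10+ cells against 13.1 ± 1.12 FPKM in IL-10- cells, adjusted p = 0.0331). Scaling without immunoglobulin and mitochondrially encoded genes left 1 of the 3, Polr3e, past the threshold. Among chaperones and export factors of ribosomal proteins and subunits, 1 of 17 (5.88%) was called lower and 0 higher, beside 9.18% and 10.6% of all genes. The 1 was Sbds, which releases a factor from new large subunits, at 26.2 ± 1.11 FPKM in IL-10+ cells, against 33.3 ± 1.25 FPKM in IL-10- cells (log2 change -0.33, adjusted p = 0.00465). With the block 12 of the 17 were called lower, beside 33.3% of all genes.

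The host genes of small nucleolar RNAs, whose own transcripts carry TOP starts, had 3 of 8 called lower and 0 higher, beside 9.18% of all genes called lower, and 8 lower with the block, beside 33.3% of all genes. Zfas1 had the largest change, at 19.99 ± 4.65 FPKM in IL-10+ cells, against 32.9 ± 6.03 FPKM in IL-10- cells (log2 change -0.71, SE 0.187, adjusted p = 0.0301). Gas5 averaged 39.4 ± 4.02 FPKM in IL-10+ cells, against 51.7 ± 5.05 FPKM in IL-10- cells (adjusted p = 0.0271), and Epb41l4aos 24.3 ± 1.59 FPKM in IL-10+ cells against 30.4 ± 0.925 FPKM in IL-10- cells (adjusted p = 0.00984).

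Of 17 other genes with TOP starts, mostly translation factors, 2 (11.8%) were called lower and 0 higher, a share near the 9.18% of all genes called lower, or 10 lower with the block, beside 33.3% of all genes. The 2 are no translation factors: Vim encodes the filament protein vimentin, at 31.3 ± 5.03 FPKM in IL-10+ cells, against 48.4 ± 4.64 FPKM in IL-10- cells (log2 change -0.62, adjusted p = 0.00787), and Hnrnpa1 an RNA-binding protein, at 678 ± 26.2 FPKM in IL-10+ cells against 796 ± 41.4 FPKM in IL-10- cells (log2 change -0.23, adjusted p = 0.0314, or 0.0544 on values scaled without immunoglobulin and mitochondrially encoded genes). Among 15 regulators of TOP messages and mTORC1, 0 were called, beside 10.6% of all genes called higher and 9.18% lower. At an unadjusted p under 0.05, 5 of the 15 passed, against 32.7% of all genes. With the block 4 were called higher and 4 lower, beside 20.4% and 33.3% of all genes. Cnbp, which binds TOP messages, averaged 179 ± 19.6 FPKM in IL-10+ cells, against 213 ± 20.1 FPKM in IL-10- cells (adjusted p = 0.124, or 0.000838 with the block). Eif4g1, the scaffold of the cap-binding complex, averaged 148 ± 34.7 FPKM in IL-10+ cells against 147 ± 38.9 FPKM in IL-10- cells (adjusted p = 0.971).

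Ribosome quality control, which rescues stalled ribosomes, had 2 of 11 called higher and 0 lower, beside 10.6% of all genes called higher and 9.18% lower. With the block 4 of the 11 were called higher and 3 lower, beside 20.4% and 33.3% of all genes. Hbs1l, a rescue GTPase, stood at 17.3 ± 0.306 FPKM in IL-10+ cells, against 13.1 ± 0.446 FPKM in IL-10- cells (log2 change 0.37, SE 0.0530, adjusted p = 0.00142), and Rnf10, a ubiquitin ligase for small subunit proteins, at 36.5 ± 0.847 FPKM in IL-10+ cells against 31.5 ± 1.27 FPKM in IL-10- cells (adjusted p = 0.0352). Among 8 genes of ribosomal stress, 1 was called higher, Mdm2, and 1 lower, Trp53, beside 10.6% of all genes called higher and 9.18% lower. With the block 2 of the 8 were called higher and 6 lower, beside 20.4% and 33.3% of all genes. On values scaled without immunoglobulin and mitochondrially encoded genes Trp53 did not pass (adjusted p = 0.0643). Among 6 genes of MYC and its partners, 1 was called higher and 1 lower, beside 10.6% and 9.18% of all genes. With the block 2 of the 6 were called higher and 3 lower, beside 20.4% and 33.3% of all genes. Mxd4, an antagonist of MYC, was called higher at 4.74 ± 1.08 FPKM in IL-10+ cells, against 2.64 ± 0.781 FPKM in IL-10- cells (adjusted p = 0.0317). Max, the shared partner, was called lower at 36.9 ± 2.83 FPKM in IL-10+ cells against 49.8 ± 4.49 FPKM in IL-10- cells (adjusted p = 0.00943). Myc itself averaged 85.5 ± 18.1 FPKM in IL-10+ cells, against 95.7 ± 19.98 FPKM in IL-10- cells (adjusted p = 0.581, or 0.00716 with the block).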

How the data were processed

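The authors deposited 1 table of FPKM for 26589 genes in 8 libraries; HISAT2 2.1.0, HTSeq 0.6.0 and mm10 are named in the submitters' processing notes, and per the labels' protocols libraries were made with a NEBNext Ultra kit. The annotation, any use of strand and the counting of reads shared between genes: not given in the sources used here. GENCODE M21 held 26550 of the identifiers. Library totals were recovered from values that are whole reads within 0.05 in 96.2% to 96.4% of cases below 200 reads.

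Groups came from sample titles. The 11329 genes reaching 1 FPKM in 4 or more libraries entered a limma fit (version 3.58.1, R 4.3.3) of log2(FPKM + 1), a scale that understates changes of low genes, with a variance trend and Benjamini-Hochberg adjustment; a change with no other name is on this scale. On simulated data for IL-10+ against IL-10- over 11329 genes it recovered 47.8% of 67 genes shifted by 0.5 on the log2 scale and 83.6% of 67 shifted by 1. Libraries of the same number deviated together from their group means (r = 0.71, 0.58, 0.62 and 0.70 across genes), so the numbers pair the samples. Across numbers, r was 0.35 and 0.28 between 1 and 2, and 0.37 and 0.43 between 3 and 4. Between 1 or 2 and 3 or 4 it was -0.61 to -0.38. The libraries thus also fall into 2 sets, numbers 1 and 2 and numbers 3 and 4. The pairing and these sets come from the data, not from the labels. Libraries of a group differed by a chi-square per degree of freedom of 8.99 to 82.8, so none were near-copies. Members and lists were chosen with earlier results of these data known. Named genes were called members, the 3 highest and 3 lowest tested members and the 2 largest rises and falls per subunit, paralog pairs, and up to 3 called genes (or the 2 most abundant) of each list; others were named after their values were seen. Results for some genes are not reported here.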

Additional observations from a re-analysis of the deposited data

Results flagged for a closer look

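In 6 of 54 groups of 4 libraries tested, 1 library stood apart from the other 3 by more than Dixon's 95% critical value of 0.829 of the range, where chance gives about 1 in 20. Rpl36al was 2.24 FPKM in IL-10- replicate 1, above the other IL-10- libraries. Rps2 was 1638 FPKM in IL-10+ replicate 1, below the other IL-10+ libraries. Rps27rt was 173 FPKM in IL-10+ replicate 1, above the others. Rps12 was 306 FPKM in IL-10- replicate 2, the library that was highest in most members. Rpl39l was 0.834 FPKM in IL-10+ replicate 3, and Rpl3l was 0.156 FPKM in IL-10+ replicate 1, both above the others and both resting on few reads.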

How the results depend on the processing

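The count of members called higher, 1 beside 10.6% of all genes, became 2 with scaling without immunoglobulin and mitochondrial genes, beside 11.4%. It was 0 within replicates 1 and 2, beside 6.8%, and 2 within replicates 3 and 4, beside 11.4%. The count called lower, 0 beside 9.18% of all genes, became 1 (Rpl7l1) within replicates 3 and 4, beside 12.1%. With the replicate block the counts were 3 higher and 19 lower, beside 20.4% and 33.3% of all genes. With the block and median-of-ratios scaling they were 4 and 8, beside 22.4% and 28.1%. They were also 4 and 8 when the block was joined to the scaling that leaves out immunoglobulin and mitochondrial genes, beside 22.5% and 27.5%. All genes called numbered 2236, and 6083, 5719 and 5663 in these 3 blocked fits. They numbered 1094 within replicates 1 and 2 and 2669 within replicates 3 and 4. Rpl36al had an adjusted p of 0.0633 within replicates 1 and 2 (log2 change 0.90), was past the threshold in the other fits that kept it, and was not tested at a minimum of 5 FPKM. Leaving out 1 library in turn gave 1 to 2 members higher and 0 lower, beside 8.26% to 10.5% and 5.36% to 8.47% of all genes. The median of the members then lay between -0.11 and -0.06 on the log2 scale. The difference in the summed share, -1.59 percentage points, was -0.324 without immunoglobulin and mitochondrial genes in the denominator (-0.0746 without IL-10- replicate 2 as well, and -0.511 without IL-10- replicate 4), and -1.75 to -1.33 with 1 library left out. The difference in the ratio of large to small subunit, 0.0291, was 0.0132 without Rplp0 and 0.0244 to 0.0339 with 1 library left out. The value without Rplp0 was 0.00684 without IL-10- replicate 1 as well, and 0.00900 to 0.0173 with another library left out; these leave-outs were added after the data had been seen. Sign changes were seen in uncalled genes only. Rps27rt (log2 change -0.0047) was 0.0267 under median-of-ratios scaling and 0.0300 when immunoglobulin and mitochondrial genes were left out of the scaling, with or without the block, and between -0.0489 and 0.0153 with 1 library left out. Within replicates 3 and 4, 24 of 81 members had changes above 0, against 6 in the fit of all 8 libraries. Among the 24 were Rps27rt (0.0042), Rpl8 (0.0071), Rps28 (0.0122), Rpl7 (0.0014) and Rps27 (0.0505). The other 57 (70.4%) were below 0, against 59.8% of all genes. The median of the members was -0.04 within replicates 3 and 4, beside -0.06 for all genes. Within replicates 1 and 2 it was -0.13, beside -0.06 for all genes. The causes were not tested. Pseudocounts of 0.1 and no filter on low values kept the counts of members at 1 higher and 0 lower. The shares of all genes were 10.5% higher and 9.25% lower with that pseudocount, and 5.05% and 3.11% without the filter.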
